A study of Mus musculus with 4 samples.

Results

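A set of 10 genes of Notch signalling were followed in a map of active chromatin of the mouse heart: the receptor genes Notch1, Notch2, Notch3 and Notch4, the ligand genes Dll4, Jag1 and Jag2, and the target genes Hey1, Hey2 and Heyl. Their H3K27ac peaks were taken from the list of replicated peaks, in windows that ran from 50 kb upstream to 50 kb downstream of each gene record (GENCODE release M21, build mm10). These windows held 146 of the 63061 peaks, and no peak fell in more than 1 window. H3K27ac, acetylation of histone H3 at lysine 27, is a mark of active promoters and enhancers and was mapped by chromatin immunoprecipitation and sequencing.

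The tissue was heart of female B6CASTF1/J mice aged 2 months, F1 hybrids of C57BL/6J and CAST/EiJ. All 4 libraries belong to this 1 group, with 2 biological replicates of 2 technical replicates each. Heart samples were pooled in pairs (2 per biological replicate). The labels give both pools the same donor identifier, so the spread between them may be technical. With no second condition there is no contrast to test, and the values below describe these peak lists.

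Notch receptors are single-pass membrane proteins that bind Delta-like and Jagged ligands on neighbouring cells. Binding leads to cleavage by an ADAM protease and then by gamma-secretase, which frees the intracellular domain. That domain enters the nucleus and, with the DNA-binding protein RBPJ and a Mastermind coactivator, switches on genes of the HES and HEY families of repressors. In the cardiovascular system Dll4, Notch1 and Notch4 are known from arterial endothelium, Notch3 from pericytes and smooth muscle cells, and HEY genes from arteries, valves and the chamber myocardium.

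The sequences that follow are examples from the distal peaks and promoters described below. The first pair are the 200 bases around the summit of the strongest distal peak in the Notch1 window and in the Dll4 window. Distal means that the summit lies more than 2.5 kb from every annotated transcription start site (TSS). Capitals in this pair mark letters of any factor searched. Within these 200 bases only TEAD letters (GGAATG on either strand) were found, at the Notch1 peak. The 300 bp around the summit, the stretch searched in the rest of the text, also held GATA letters (AGATAA) at the Dll4 peak. Positions are on mm10 and the plus strand is shown, chr2:26475532-26475731 for Notch1 intron 15 and chr2:119300510-119300709 for the region upstream of Dll4.
Notch1 intron 15: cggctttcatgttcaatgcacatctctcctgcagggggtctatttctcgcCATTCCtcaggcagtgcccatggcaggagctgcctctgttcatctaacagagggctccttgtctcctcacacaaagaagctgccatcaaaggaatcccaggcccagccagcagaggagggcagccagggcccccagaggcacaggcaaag
Dll4 upstream: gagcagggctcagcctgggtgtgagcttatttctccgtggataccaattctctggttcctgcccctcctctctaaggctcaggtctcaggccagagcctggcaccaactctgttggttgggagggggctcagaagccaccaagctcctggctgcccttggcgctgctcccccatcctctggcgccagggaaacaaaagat

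The next pair are the 300 bases around the summit of 2 distal peaks, one in the Notch1 window and one in the Dll4 window. Both hold the RBPJ letters GTGGGAA on either strand and touch no coding gene's exon. They are 2 of the 20 distal peaks with these letters. Their folds were 8.63 and 7.11, above the median of 3.72 for such peaks. The peak in the Dll4 window lies nearer to the start of Vps18 than to that of Dll4. The sequences show where the binding letters of the pathway's own DNA-binding protein stand. Capitals mark those letters, which read TTCCCAC where they are on the other strand. The plus strand is shown, at chr2:26526529-26526828 upstream of Notch1 and chr2:119305013-119305312 upstream of Dll4.
Notch1 upstream: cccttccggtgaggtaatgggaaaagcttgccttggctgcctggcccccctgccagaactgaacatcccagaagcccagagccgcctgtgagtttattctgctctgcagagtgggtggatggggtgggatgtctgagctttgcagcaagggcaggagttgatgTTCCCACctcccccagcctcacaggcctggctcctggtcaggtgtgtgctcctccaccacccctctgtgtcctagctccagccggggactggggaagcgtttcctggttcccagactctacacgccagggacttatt
Dll4 upstream, nearer: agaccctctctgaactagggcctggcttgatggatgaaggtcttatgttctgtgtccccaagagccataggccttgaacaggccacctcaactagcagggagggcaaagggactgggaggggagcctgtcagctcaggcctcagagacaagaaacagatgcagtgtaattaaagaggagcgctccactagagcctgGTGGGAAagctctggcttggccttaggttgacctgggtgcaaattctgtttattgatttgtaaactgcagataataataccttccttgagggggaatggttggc

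Among the promoters that RefSeq gives on GRCm38 for 8 of the 10 genes, only that of Hey2 held the RBPJ letters. Shown here is its part upstream of the annotated start, chr10:30842802-30843033 read on the minus strand, with those letters in capitals. They end 183 bases before the start of Hey2, inside an acetylated peak with a fold of 10.3. That place is outside the 300 bp around the summit, so neither promoter peak of Hey2 is counted below as holding RBPJ letters. With the bases ca before them, the capitals also give CATTCC, the TEAD letters GGAATG on the other strand.
Hey2 promoter: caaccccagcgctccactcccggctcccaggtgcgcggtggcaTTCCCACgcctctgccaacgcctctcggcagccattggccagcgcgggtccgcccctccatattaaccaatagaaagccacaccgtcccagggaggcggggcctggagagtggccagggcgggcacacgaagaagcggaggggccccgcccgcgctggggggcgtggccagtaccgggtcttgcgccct

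All 10 genes carried acetylation at a promoter, defined as a peak no more than 1 kb from one of the gene's annotated TSSs. The share among 21728 protein-coding genes was 57.3%. A peak also lay within 1 kb of the 5' end of the gene record at all 10, against 53.7% of genes. The single-replicate lists held a promoter peak at all 10 genes too, in both, against 55.4% of genes. The fold quoted below is the authors' enrichment value for a peak and is compared only within a list. The strongest promoter peak had a median fold of 19.7 over the 10 genes and 13.2 over the 12450 genes with a promoter peak, and 7 of the 10 lay above that median. The 3 below that median were Notch3, Hey2 and Heyl. The strongest and the widest promoter peak were taken over all annotated TSSs of a gene. Jag2 lay above the median through a peak at internal starts (18.4), while the peaks at its 5' end had folds of 11.0 and 8.91. The widest promoter peak had a median of 3964 bp over the 10 genes and 1436 bp over all, and in the replicated list that of Notch2 was the 1 under the second value. In the single-replicate lists Notch2 and Notch3 were below the median of replicate 1, and Notch3 below that of replicate 2. In whole tissue, more cells of a type and more acetylation per cell cannot be told apart, and peaks of the Notch genes cannot be assigned to a cell type.

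**Figure D1:**
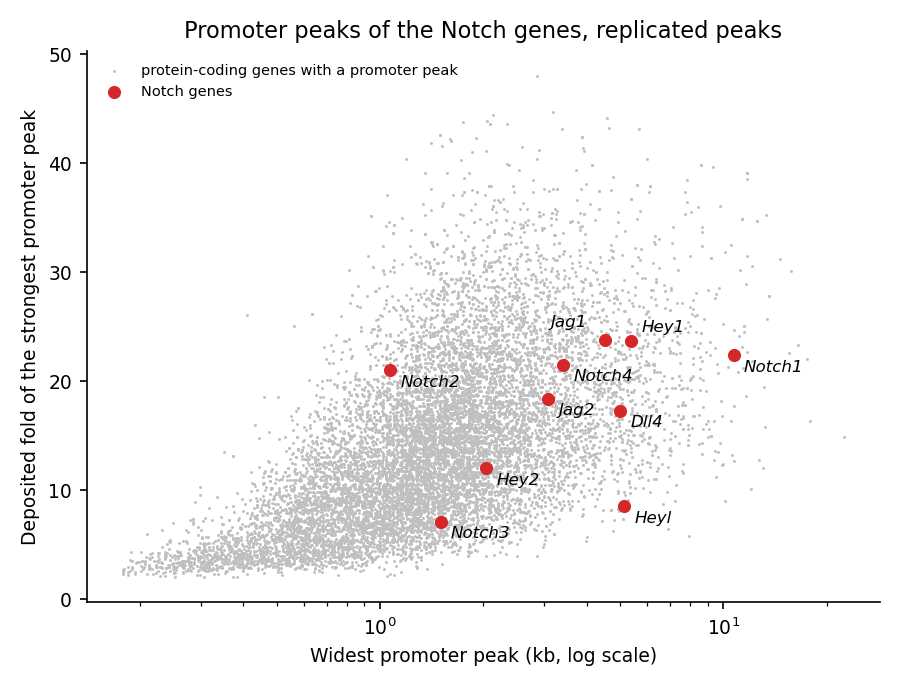
Each grey point is 1 of 12450 protein-coding genes with a promoter peak in the replicated list, placed by the width of its widest promoter peak (kb, log scale) and the deposited fold of its strongest; red points are the 10 Notch genes. Notch1 lies far to the right at 10.7 kb, and Notch2 has a strong peak that is narrow in this list (fold 21.0, 1.07 kb). Heyl has a weak but wide one (fold 8.53, 5.13 kb), which lies over an alternative start in intron 1 and not at the 5' end.

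Acetylated length, the length covered by peaks within 50 kb of the gene, was above the median of all genes (4.39 kb) for all 10, with a median of 19.0 kb. For 6 of the 10 (Notch1, Notch3, Notch4, Dll4, Jag2 and Heyl) it reached the upper decile of genes, which began at 18.5 kb and by definition held 10% of genes. Jag2 and Heyl were just inside that limit at 18.9 and 19.0 kb. In the list of biological replicate 2 both fell below its limit of 21.8 kb, which left 4 genes, whereas the list of biological replicate 1 kept the same 6. With windows reaching 100 kb from the gene, 3 genes were in the upper decile: Notch1, Notch4 and Dll4. With windows of 25 kb there were 7, Notch2 being added, and over the gene body alone 7, with Notch2 and Jag1 in and Notch4 out.

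**Figure D2:**
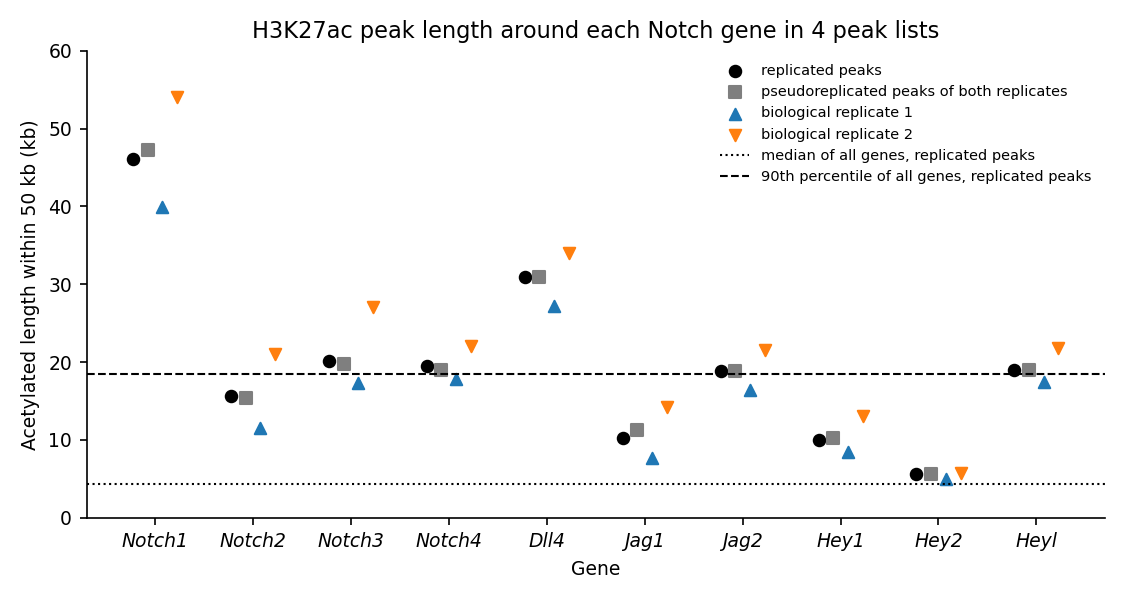
Acetylated length (kb) within 50 kb of each gene in the 4 peak lists, with the median (dotted, 4.39 kb) and the 90th percentile (dashed, 18.5 kb) of all protein-coding genes in the replicated list. Notch1 and Dll4 stand above the dashed line with the length in every list, and the list of biological replicate 2 gives the largest length for each of the 10 genes.

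Notch1 had the longest acetylated domain of the 10. The gene, which encodes the receptor required in endothelium and endocardium, lies on the minus strand of chromosome 2 from 26457903 to 26516663. Its window held 25 peaks covering 46.1 kb in the replicated list, 47.3 kb in the pseudoreplicated list of both replicates, 39.9 kb in that of biological replicate 1 and 54.0 kb in that of biological replicate 2. The value in the replicated list was higher than in 99.4% of genes. The start of the principal transcript lay in a peak of 10.7 kb with a fold of 22.4, from 26494579 to 26505249, which ran 1.43 kb upstream and 9.24 kb into the gene. The width of that domain depended on the list: the widest promoter peak was 10.7 kb in replicate 2 and 4.78 kb in replicate 1.

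Downstream of that promoter, acetylation continued through the second intron of Notch1. A further peak of 8.76 kb with a fold of 13.7 had its summit 12.7 kb from the start. Peaks covered 98.4% of this intron of 16.4 kb, which is known from the literature to hold an arterial enhancer. The strongest distal peak of the window, with a fold of 15.3, lay in intron 15. It covered 2.88 kb, and its summit sequence is the first one printed above. Altogether 54.4% of the gene body was covered.

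Upstream of Notch1, an alternative start 12.8 kb before the principal one was marked by a peak of 2.72 kb with a fold of 11.8. Beyond it 10 intergenic peaks reached toward Egfl7, an endothelial gene. The one 22.9 kb upstream, with a fold of 8.63, gave the upstream Notch1 sequence printed above with RBPJ letters. Of the other genes in the window, Inpp5e and Sec16a had promoter peaks, with folds of 19.5 and 16.1. Among all genes with a promoter peak, Gata4, a cardiac transcription factor gene, was most like Notch1 over 4 measures (peak number, acetylated length, and width and fold of the promoter peaks, as percentiles): it had 28 peaks, 48.1 kb and a fold of 22.6. Fmnl3 followed, with 24 peaks, 35.6 kb and a fold of 22.5.

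Notch2 had a strong promoter peak and weak peaks along its introns. Notch2 encodes a widely expressed receptor and is on the plus strand of chromosome 3 from 98013527 to 98150361. Its 16 peaks covered 15.6 kb in the replicated list, 15.4 kb in the pseudoreplicated one, 11.6 kb in replicate 1 and 21.1 kb in replicate 2. The promoter peak had a fold of 21.0 and a width of 1.07 kb (percentile 31.9). Its width depended on the list, with 0.986 kb (percentile 36.3) in replicate 1 and 1.75 kb (percentile 52.4) in replicate 2. Its fold was 15.8 in replicate 1 and 27.2 in replicate 2, percentiles 76.9 and 84.7 among the genes with a promoter peak in each list. All 16 peaks lay in the gene or at its promoter, and introns 1 and 2 were covered over 33.6% and 14.1% of their length. The widest of these, of 4.83 kb and with a fold of 4.99, lay 12.3 kb into the gene.

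Notch3, the mural-cell receptor, carried its strongest acetylation at the end of the gene and not at the start. It lies on the minus strand of chromosome 17 from 32120820 to 32166852. The 21 peaks of its window covered 20.1 kb, and 19.7, 17.3 and 27.1 kb in the pseudoreplicated list and in replicates 1 and 2. The promoter peak had a fold of 7.11, lower than in most genes with such a peak (percentile 18.4), and was 1.5 kb wide. The widest promoter peak was 0.62 kb (percentile 16.5) in replicate 1 and 1.61 kb (percentile 47.1) in replicate 2. In the single-replicate lists that fold was at percentiles 14.0 and 20.1. A peak of 3.93 kb over the last exon, number 33, had a fold of 17.4, with its summit 44.3 kb from the start. The order was the same in each replicate, with 14.7 at the end against 5.52 at the start in replicate 1, and 16.4 against 9.06 in replicate 2. The first introns held weaker peaks, with folds of 6.54 and 4.83. The genes most like it were Pi16, with a promoter fold of 7.39 and 21.4 kb, and Bicc1, with 7.49 and 19.8 kb.

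Around Notch4, an endothelial receptor gene on the plus strand of chromosome 17 from 34564268 to 34588503, most of the acetylation belonged to neighbours. The window held 14 peaks and 19.5 kb in the replicated list, 19.0 kb in the pseudoreplicated list, and 17.8 and 22.1 kb in replicates 1 and 2. Of the length in the replicated list, 60.2% was at promoters of other genes: Gpsm3, Pbx2, Rnf5, Agpat1, Egfl8, Ppt2 and Prrt1. The length given for Notch4 thus includes sequence at the promoters of other genes. Its own start had a peak of 3.42 kb with a fold of 21.5, which held the RBPJ letters at its summit. A second peak, of 2.25 kb and with a fold of 13.7, covered the last exon, number 30, where short transcripts also start. The peak shared by Gpsm3 and Pbx2 was the strongest of the window, at 22.3.

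**Figure D3:**
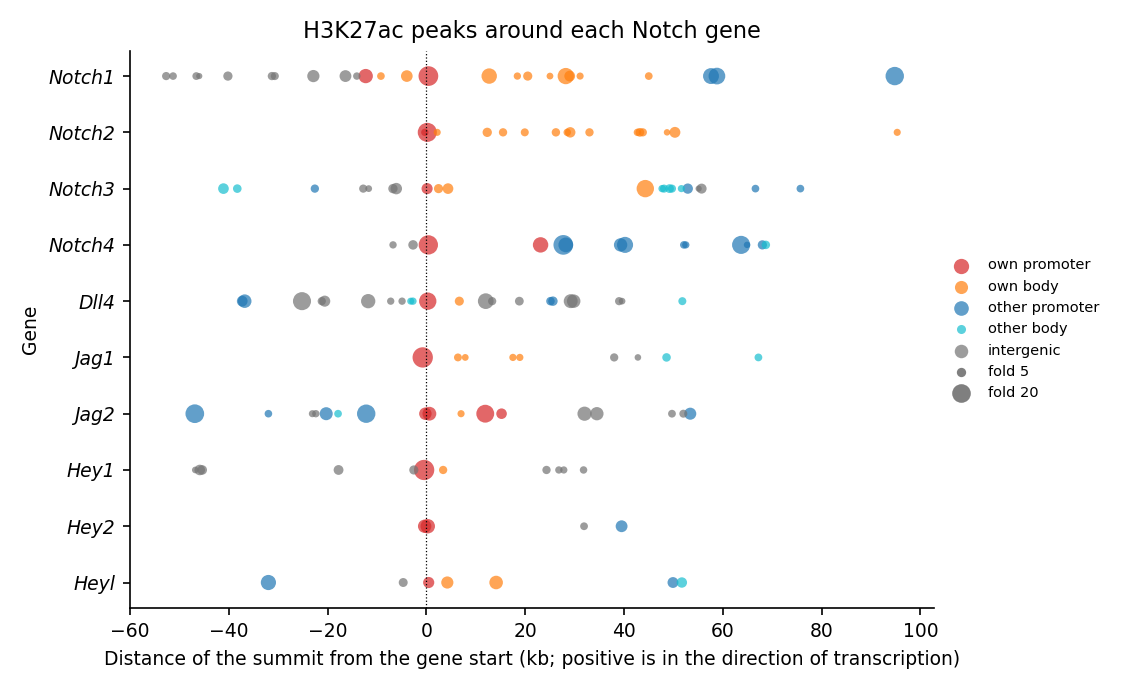
Every peak of the 10 windows by the distance of its summit from the start of the principal transcript (kb, positive in the direction of transcription), with the area of a point proportional to the deposited fold and its colour giving the location. Dll4 has large intergenic points on both sides of its start, Notch3 has its largest point 44.3 kb downstream of the start, and the points of Notch2 lie at its start or inside the gene.

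Of the ligands, Dll4 had the most acetylation, and most of it was outside the gene. Dll4 encodes the main Delta-like ligand of arterial endothelium. It is a short gene on the plus strand of chromosome 2, from 119325784 to 119335962. The 22 peaks of its window covered 31.0 kb in the replicated list, 30.9 kb in the pseudoreplicated list, 27.2 kb in replicate 1 and 34.0 kb in replicate 2. Intergenic peaks made up 62.4% of that length, against 24.5% over the 10 windows. The peak with the highest fold in the window, 18.8, was not at the start of Dll4 (17.3). It lay 25.2 kb upstream, where 3.66 kb were acetylated, and its summit sequence is printed above. The nearest protein-coding start to its summit was that of Vps18, 11823 bp away, and not that of Dll4. This peak led in each replicate too, with 16.6 against 14.9 at the start of Dll4 in replicate 1 and 24.4 against 22.6 in replicate 2. A further domain of 4.95 kb with a fold of 11.8 lay 11.8 kb upstream. Regions upstream of Dll4 are known as arterial enhancers, but whether these peaks act on Dll4 was not tested.

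At the gene itself, the start peak of Dll4 ran for 5.01 kb and reached 3.88 kb into the gene. It covered the whole of intron 3, which is also known as an enhancer. Another peak of 5.01 kb, with a fold of 14.2, began inside the gene and passed its 3' end, and 87.6% of the gene body was covered in all. Farther downstream, 2 peaks near 30 kb had folds of 11.2 and 10.5, closer to Chac1 than to Dll4. The promoters of Vps18 and Chac1 in the window had folds of 10.6 and 5.12. The genes most like Dll4 were Sept9, with 25 peaks and 36.3 kb, and Palmd, with 25 peaks and 32.0 kb.

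Jag1 combined a strong promoter with little else. It encodes a Jagged ligand of endothelium and smooth muscle and lies on the minus strand of chromosome 2 from 137081456 to 137116644. Its 9 peaks covered 10.3, 11.3, 7.68 and 14.3 kb in the replicated, pseudoreplicated, replicate 1 and replicate 2 lists. The promoter peak had a fold of 23.8, next to 23.7 at Hey1, the highest promoter values among the 10 genes in that list, and a width of 4.51 kb, or 43.9% of the acetylated length of the window. None of the other peaks had a fold above 4.21. Of the 9 peaks, 5 were found again in both replicates taken singly and 3 in neither.

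Jag2, the other Jagged ligand gene, lies on the minus strand of chromosome 12 from 112907819 to 112929776. Its 17 peaks covered 18.9 kb in both lists of the 2 replicates together, 16.4 kb in replicate 1 and 21.5 kb in replicate 2. Around its annotated 5' end were 2 short peaks with folds of 11.0 and 8.91, and the start itself fell between them. The strongest peak of the gene, with a fold of 18.4 and 3.08 kb wide, was 11.9 kb downstream, where short transcripts of Jag2 start. It had a fold of 15.1 in replicate 1 and 23.2 in replicate 2, against at most 8.01 and 14.7 at the 5' end. Promoters of other genes made up 36.4% of the length. These included Btbd6 and Nudt14, with folds of 20.1 and 19.5, both above that of Jag2, and Brf1, with 3.33.

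**Figure D4:**
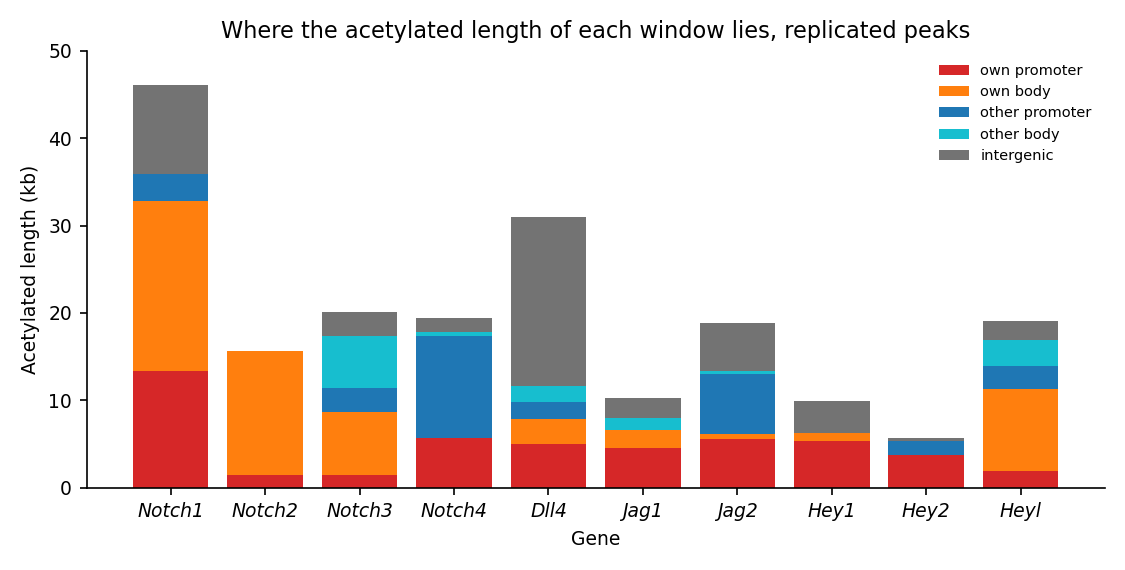
Acetylated length (kb) of each window in the replicated list, divided by location: the gene's own promoter, the rest of its body, promoters of other genes, bodies of other genes, and intergenic sequence. Intergenic sequence is the largest part for Dll4, promoters of other genes are the largest for Notch4 and Jag2, and the body is the largest for Notch1, Notch2, Notch3 and Heyl.

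The 3 HEY genes, which encode repressors and are direct Notch targets, differed in form. Hey1 lies on the minus strand of chromosome 3 from 8663359 to 8667256. Its acetylation was 1 strong domain: a peak of 5.37 kb with a fold of 23.7 covered 77.9% of the gene and ran 2.33 kb upstream. That fold was 18.8 in replicate 1 and 30.4 in replicate 2. The other 10 peaks were weaker, with folds of at most 6.45, and the window reached 9.94, 10.3, 8.47 and 13.1 kb in the 4 lists, in the order used for Jag1. A group of 3 peaks lay 45.4 to 46.8 kb upstream, and 2 of them held RBPJ letters. No other protein-coding gene in the window had a promoter peak.

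Hey2, known from the chamber myocardium and from arteries, had the least acetylated length of the 10. It lies on the minus strand of chromosome 10 from 30832359 to 30842801. Its window held 4 peaks covering 5.69 kb in both joint lists, 5.01 kb in replicate 1 and 5.81 kb in replicate 2. A pair of promoter peaks flanked the start, one of 2.04 kb with a fold of 12.0 over the first exon and intron, and one of 1.77 kb with a fold of 10.3 upstream. The RBPJ letters of the printed promoter lie in the upstream one. The 2 other peaks were at the promoter of Ncoa7, with a fold of 8.09, and between the genes, with 3.5.

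Heyl, a HEY gene of vascular smooth muscle, lies on the plus strand of chromosome 4 from 123233556 to 123249875. Its fold was low and its domain wide. The strongest promoter peak, with a fold of 8.53, was at percentile 25.2, and at 5.13 kb it was wider than in 95.9% of genes with a promoter peak. That peak lay over an alternative start in intron 1. Its summit was 1979 bp from the nearest start, so by location it was counted in the gene body. The peak at the 5' end had a fold of 7.2 and was 1.95 kb wide. In replicate 1 the widest promoter peak was 2.97 kb, against 5.5 kb in replicate 2. As at Notch3, the strongest peak in the gene covered its last exon, with a fold of 10.6 and 4.24 kb wide. There the single replicates gave 9.1 and 12.6, above the 7.47 and 10.5 of the promoter. The 7 peaks covered 19.0 kb in both joint lists and 17.4 and 21.8 kb in replicates 1 and 2, and 66.7% of the body was covered. Neighbouring promoters of Nt5c1a and Pabpc4 had folds of 13.3 and 6.82.

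Acetylation over the end of the gene was a feature of 5 of the 10: Notch3, Notch4, Dll4, Hey1 and Heyl each had a peak over the last base of the record. Among genes with a promoter peak the share was 6.64%. This comparison was chosen after the peaks had been seen. At Hey1, which is short, the 3' peak adjoins the promoter domain. At Notch3 and Notch4 most of the body between the 2 ends held no peak: 15.7% and 17.1% of their bodies were covered.

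RBPJ letters stood in a larger share of the distal peaks of these genes than of all distal peaks. On one strand or the other, GTGGGAA stood within the central 300 bp of 20 of the windows' 83 distal peaks, 24.1% (95% exact binomial interval 15.4% to 34.7%, for counting error only). Of all 38733 distal peaks, 7.56% held it, and so did 6.58% of the 3756 stretches of 300 bp without a peak in the same windows. Peaks of a window share a locus and are not independent, so no test was made. Of the 20, 16 lay in both single-replicate lists. At promoter peaks the shares were 3 of 45 (6.67%) in the windows and 6.58% of all promoter peaks. These values depended on the stretch searched: with 500 bp they were 17.8% and 10.6%, and with whole peaks 48.9% and 24.9%.

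By gene, these distal peaks were 6 of 16 at Notch1, 3 of 12 at Notch2, 3 of 16 at Dll4, 3 of 8 at Jag1, 3 of 10 at Hey1, and 1 of 2 at Notch4 and at Heyl. There were none among the 12 of Notch3, the 4 of Jag2 and the 1 of Hey2. With shorter letters the shares were closer: TGGGAA, which is contained in GTGGGAA and can overlap the TEAD letters GGAATG, stood in 34.9% and 29.9%. Peaks with the RBPJ letters had a median fold of 3.72, and the others of the windows 3.95. The median GC content around the summit was 51.7% in the windows and 47.0% over all distal peaks, and its part in the difference was not tested.

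Letters of other factors were searched in the same way. The E-box CAGCTG stood in 33.7% of the distal peaks and 18.7% of all, and the part of GC content in this difference was not tested. HES and HEY letters (CACGTG or CACGCG) were in 8.43% and 4.79%, and ETS letters (CCGGAA) in 8.43% and 3.95%. GATA letters (AGATAA) had 12.0% and 15.6%, SOX letters (ACAATG) 10.8% and 15.3%, AP-1 letters (TGACTCA) 4.82% and 6.12%, and TEAD letters 15.7% and 17.1%. The E-box difference was not confined to distal peaks: at promoter peaks the shares were 28.9% in the windows and 17.3% of all. ETS letters went the other way there, with 11.1% and 15.7%. GATA, SOX, AP-1 and TEAD letters stood in only 2, 1, 1 and 4 of the 45 promoter peaks of the windows, smaller shares than of all promoter peaks. Some of these orders depended on the stretch searched. With 500 bp, TEAD letters were in 22.2% and 19.9% of promoter peaks, and AP-1 letters in 15.7% and 11.7% of distal peaks. With whole peaks, GATA letters were in 40.0% and 34.3% of promoter peaks. SOX letters remained less frequent in the windows with each stretch. In the RefSeq promoters, HES and HEY letters were found for Notch2, Dll4, Jag1 and Jag2, 4 of the 8 matched genes. They were in 15.4% of the 32851 promoters of that table, and RBPJ letters in 6.38%. HES and HEY letters contain CpG. The CpG content (observed over expected) was 1.04, 0.595, 0.959 and 1.14 in these 4 promoters, with a median of 0.384 over the table. Without the letters, Notch1, Notch3 and Hey2 had 0.66, 0.706 and 0.746, and Notch4 0.214. The part of CpG content was not tested. At promoter peaks, HES and HEY letters stood in 17.8% in the windows and 17.1% of all. A match is a description of the sequence and not a binding site.

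**Figure D5:**
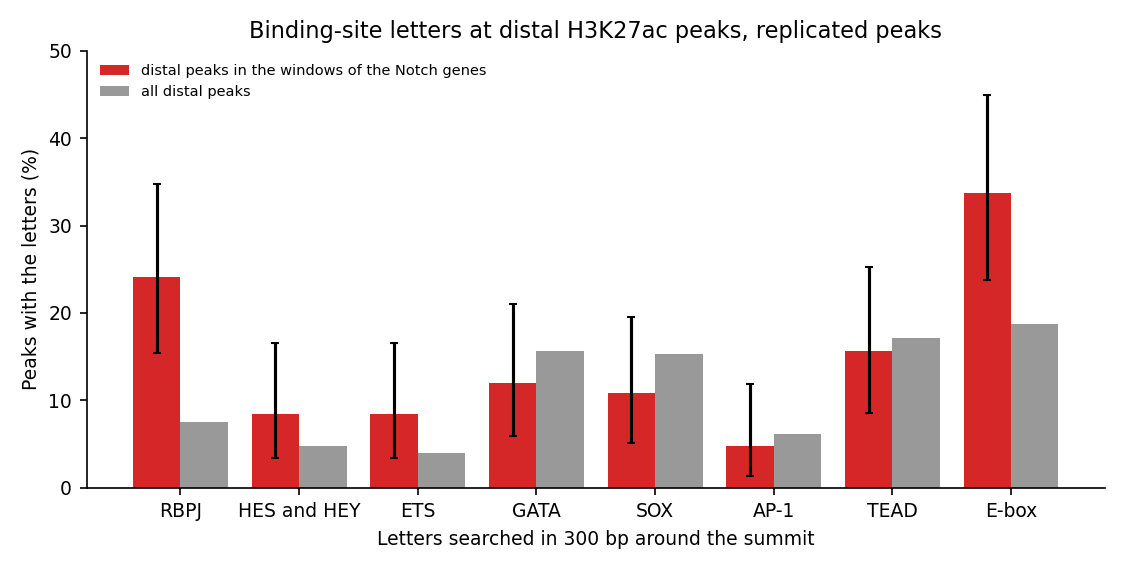
Share of distal peaks (%) with the letters of each factor in 300 bp around the summit, for the 83 distal peaks in the windows of the Notch genes (red, with 95% exact binomial intervals for counting error) and all 38733 distal peaks (grey). RBPJ letters (24.1% against 7.56%) and the E-box (33.7% against 18.7%) are the pairs in which the grey bar lies below the interval. Peaks of a window are not independent, so the intervals are not a test.

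Most other genes of the pathway were marked at a promoter too. Of 56 other Notch pathway genes, 48 had a promoter peak, set against the same 57.3%, and 11 were in the upper decile of acetylated length, against 10% of genes. The lengths are of whole windows, as for the 10 genes, and can include peaks of other genes. All 9 genes of receptor cleavage had a promoter peak. Psen2, a gamma-secretase subunit gene, had 40.6 kb in its window but a widest promoter peak of 1.64 kb, and Aph1a had 17.9 kb and 4.99 kb. All 8 genes of the nuclear complex had a promoter peak too. There the Mastermind genes Maml2 and Maml3 had 38.5 and 25.1 kb, and Rbpj had a promoter fold of 19.6. All 6 genes of receptor maturation, all 7 corepressors and all 4 genes of ligand endocytosis had one as well in the replicated list. Neurl1a, of the last group, had a weak one (fold 3.83) and none in the list of biological replicate 1. In these roles Mfng and Lfng, which encode Fringe enzymes, had 20.5 and 16.3 kb, Spen had 34.6 kb, and Neurl1b and Neurl1a had 27.5 and 12.1 kb. Among 10 negative regulators, 9 had a promoter peak, all but Dtx1, and the feedback gene Nrarp led with 29.4 kb, followed by Numb with 18.2 kb.

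Genes without a promoter peak were mostly ligands and HES genes. Of 5 further ligand genes, Dll1 and Dlk2 had one, with 5.58 and 9.88 kb around them, while Dll3, Dlk1 and Dner had none. Of the 7 genes of the HES family, Hes1, Hes6 and Hes7 had one, with folds of 16.8, 13.5 and 13.1, and Hes2, Hes3, Hes5 and Helt had none in the replicated list. In the list of biological replicate 2, Hes5 and Helt had one as well, which makes 5 of 7 there, against 3 of 7 (and 57.3% of all genes) in the replicated list. Hes3 had 19.4 kb of acetylation within 50 kb despite lacking a promoter peak. Of 11 arterial endothelial genes, 10 had a promoter peak, all but Bmx, with Nrp1 at 68.0 kb and Acvrl1 at 27.2 kb.

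The labelled tissue could be checked against its markers. In the replicated list, where 57.3% of all genes had a promoter peak, all 6 cardiomyocyte and all 6 endothelial markers had one. Around them lay 12.6 to 36.4 kb and 12.0 to 53.3 kb. The same held for 5 of 5 fibroblast markers, with 5.94 to 23.2 kb. Leaving out Notch3 itself, 4 of 5 markers of pericytes and smooth muscle had a promoter peak, Myh11 being the exception. None of 4 macrophage markers and none of 6 markers of other tissues had one. In the list of biological replicate 2, Myh11 and the macrophage marker Cd68 had one as well. Windows without a promoter peak could still hold acetylation, with 17.3 kb at Cd68, 11.8 kb at Csf1r and 11.3 kb at Apoa1. No peak at all lay in the windows of 1 macrophage marker and 5 markers of other tissues.

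The peaks of the Notch genes were shared between the replicates about as often as peaks in general. Of the 146, 115 had a partner in each replicate's own list, 78.8% (95% exact binomial interval 71.2% to 85.1%), and of all peaks 73.0%. A partner was missing from both lists for 8 peaks. Of the 72 peaks with a fold at or above the median of the list, all were in both, as were 98.5% of all peaks above that limit. Requiring 50% of each peak to overlap left 56.2%, and 51.0% of all peaks. The list of biological replicate 2 covered 81.1 Mb of the genome and that of replicate 1 54.4 Mb, and it gave the larger acetylated length at each of the 10 genes. By location, 17 of the 146 peaks were at the gene's own promoter, 36 in its body, 28 at other promoters, 15 in bodies of other genes and 50 between genes, and for 94 the nearest protein-coding start was the gene's own.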

How the data were processed

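The members, gene lists and letters were chosen with earlier results of these data known. The authors joined technical replicates and deposited 4 peak lists on mm10, per the text records beside the libraries; the aligner and caller are not named in the sources used, and depth, and so precision per library, is unknown. Each deposited list holds a display score (not used), a fold (the authors' ratio of enrichment, identified by its column in the format) and −log10 p and q values. Fold was used only to describe and rank peaks within a list. The labels name mm10 for the hybrid's reads, and strain variants were not examined. Genes, TSSs and exons came from GENCODE M21. The background was 21728 protein-coding symbols, without the Y chromosome and the mitochondrial genome. A peak counted in a window with any overlap. Its location followed the summit. Percentiles are shares of genes with a lower value. Named genes were the 10 members, in each pathway role those without a promoter peak and the 2 with most acetylated length, neighbours with a promoter peak, and the 2 most alike genes for 3 members; other names were chosen after their values were seen. A few items this rule would give are left out of the text. The overlap code was tested on simulated windows, with 1000 of 1000 right. Python 3.11.15, pandas 2.3.3 and pysam 0.24.0 were used.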

Additional observations from a re-analysis of the deposited data

How the results depend on the processing

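A promoter peak and a peak at the 5' end were present at all 10 genes under every alternative run: single-replicate lists, the pseudoreplicated list, a q-value of at most 0.05, a fold at or above the median, and promoter windows of 0.5 and 2.5 kb. The number in the upper decile of acetylated length was 3 with windows of 100 kb, 7 with windows of 25 kb and over the gene body alone, and between 4 and 6 in the lists of a single replicate. The median acetylated length was 14.8 kb with windows of 25 kb (2.58 kb over all genes) and 6.33 kb over the gene body alone (0.614 kb), since less sequence is counted. With windows of 100 kb it was 20.7 kb (8.38 kb), where the 2 values were closest in proportion. Sharing between replicates was 56.2% with 50% overlap (51.0% of all peaks) and 100% for peaks with a fold at or above the median (98.5%). RBPJ letters over all peaks of the windows rose from 17.1% to 26.0% with 500 bp and 42.5% with whole peaks, and were 30.1% for TGGGAA; the shares over all peaks were 11.5%, 20.7% and 27.7%. Over distal peaks, alternatives chosen after seeing the data gave 44.6% with whole peaks (18.9% of all distal peaks), 34.9% for TGGGAA (29.9%), 18.9% to 22.4% in the single-replicate lists (7.67% in each), and 25.4% for peaks nearest to a Notch gene (7.55%). No paired analysis was possible because there is 1 group. Depth is unknown, so weak peaks missing from a list may be below detection.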
